A study of Homo sapiens with 2 samples.

Results

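Epithelial cells hold their identity with transcription factors that keep junction and polarity genes on, and with splicing factors that make the epithelial forms of many proteins. Factors that drive epithelial to mesenchymal transition (EMT), in which cells loosen from their neighbours and take on features of connective tissue cells, act in the opposite direction, and ZEB1 and several epithelial factors, GRHL2 among them, are known to repress each other. Of the 10 such genes chosen for study, 6 were epithelial factors (EHF, ELF3, GRHL2, OVOL1, ESRP1 and ESRP2) and 4 were EMT inducers (ZEB1, ZEB2, SNAI2 and TWIST1). A gene was measured when a probe set carried its symbol and no other, which held for 9 of the 10 genes among 19775 genes in all, over 25 probe sets. ESRP2 was not analysed here because its probe set was annotated to several genes.

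The cells were PC3CR, a subline of the prostate cancer line PC3 kept for 18 months in cabazitaxel (CBZ), a microtubule-stabilising taxane, and parental PC3. PC3CR was profiled after 3 months without CBZ, and both lines were grown in the same serum-containing medium. The comparison asked which genes differ between CBZ-resistant and CBZ-sensitive cells. Total RNA of each line was hybridised to 1 array, so there were 2 arrays in all, no difference has a replicate check, and cell line and array cannot be told apart. PC3CR is 1 resistant subline, and its values need not hold for others. CTNNA1, which encodes alpha catenin of adherens junctions and is known as a gene deleted in PC3 cells, was at 11.13 in PC3CR and 9.00 in PC3 (log2 signal), above the upper quartile over genes of each array (8.21 in PC3CR and 8.11 in PC3), and 4 of its 5 probe sets were at or above the median on both arrays. These 4 bright probe sets are all of a class that can bind several transcripts, and they differed by between 2.04 and 2.49. The fifth, outside that class, was at 4.85 in PC3CR and 4.95 in PC3, below the median on both arrays, and differed by -0.093. Whether CTNNA1 is deleted in these cells cannot be read from such values. The identity of the cells was not tested, so every difference below is one between the arrays labelled PC3CR and PC3.

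Values are log2 signals from the robust multichip average (RMA), and a difference is PC3CR minus PC3, so that 1 means 2-fold higher and -1 means 2-fold lower in PC3CR. Following the 2-fold rule of the methods, a gene was called lower at a difference of -1 or below and called higher at 1 or above. Where a gene had several probe sets, the one brightest on average was read. The median over genes was 6.05 in PC3CR and 5.93 in PC3, the lower quartile was 4.10 in PC3CR and 4.22 in PC3, and the median difference over genes was -0.041. Values below the lower quartile lie near the floor of the array, where the size of a difference is limited. Probe sets bind their targets with different strength, so levels of different genes were set against these quartiles and not against each other. In RNA from a whole culture, fewer cells that express a gene and less of its RNA in each cell cannot be told apart.

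All 5 measured epithelial factors were called lower in PC3CR, and none of the 4 EMT inducers was called higher. Among the EMT inducers, TWIST1 was lower by more than 2-fold, SNAI2 was lower by slightly less than that, ZEB1 differed by 0.39 and ZEB2 was near the floor on both arrays. Over both classes 6 of 9 genes were called lower, against 6.72% of all genes, and 0 of 9 were called higher, against 9.84% of all genes. The factors were chosen with earlier results of these data known, so these shares are a background and not a test. They also cover genes near the floor on both arrays, which could hardly be called lower. The median difference was -2.22 for the epithelial factors and -0.48 for the EMT inducers.

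The start regions of these genes are shown because ZEB1, ZEB2 and SNAI2 are repressors that bind E-boxes in promoters of epithelial genes. Windows of 250 bases before to 50 bases after a start were taken from RefSeq on GRCh38.p14, in which 4 of the 10 genes matched. In the sequences below, given 5′ to 3′, capitals mark the E-box CACCTG, the Grainyhead motif AACCNGTT (the kind bound by GRHL2) and the ETS motif GGAAGT (the kind bound by ELF3 and EHF), each on either strand. ELF3 and EHF are shown as epithelial factors that were lower, ZEB1 as the factor that was slightly higher, and RAB25 and CLDN7 as epithelial genes with E-boxes that were also lower. For ZEB1 and CLDN7, which have several windows, the one with the most E-boxes is given.
ELF3, chr1:202010337-202010636, + strand: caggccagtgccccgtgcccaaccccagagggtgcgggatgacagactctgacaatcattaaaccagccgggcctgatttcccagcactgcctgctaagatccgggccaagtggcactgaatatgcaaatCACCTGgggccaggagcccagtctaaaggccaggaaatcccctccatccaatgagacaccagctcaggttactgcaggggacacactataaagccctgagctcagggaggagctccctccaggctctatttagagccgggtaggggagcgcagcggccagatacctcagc
EHF, upstream start, chr11:34624007-34624306, + strand: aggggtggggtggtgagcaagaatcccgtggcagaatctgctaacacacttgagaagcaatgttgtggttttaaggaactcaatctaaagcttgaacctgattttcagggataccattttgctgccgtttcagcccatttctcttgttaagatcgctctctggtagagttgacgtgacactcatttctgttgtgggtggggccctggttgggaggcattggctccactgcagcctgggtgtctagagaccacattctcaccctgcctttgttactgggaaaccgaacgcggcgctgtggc
EHF, downstream start, chr11:34632316-34632615, + strand: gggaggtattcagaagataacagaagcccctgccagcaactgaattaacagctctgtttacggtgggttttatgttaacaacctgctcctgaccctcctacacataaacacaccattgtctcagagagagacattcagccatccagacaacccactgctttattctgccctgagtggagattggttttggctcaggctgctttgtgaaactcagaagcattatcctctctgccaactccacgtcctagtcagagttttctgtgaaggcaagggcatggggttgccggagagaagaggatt
ZEB1, chr10:31318966-31319265, + strand: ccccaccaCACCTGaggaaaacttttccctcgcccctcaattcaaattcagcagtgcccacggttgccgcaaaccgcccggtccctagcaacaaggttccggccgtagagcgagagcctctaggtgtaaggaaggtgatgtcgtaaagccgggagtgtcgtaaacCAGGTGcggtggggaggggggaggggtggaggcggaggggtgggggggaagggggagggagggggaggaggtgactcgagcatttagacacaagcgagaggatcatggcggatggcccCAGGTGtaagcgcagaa
RAB25, chr1:156060910-156061209, + strand: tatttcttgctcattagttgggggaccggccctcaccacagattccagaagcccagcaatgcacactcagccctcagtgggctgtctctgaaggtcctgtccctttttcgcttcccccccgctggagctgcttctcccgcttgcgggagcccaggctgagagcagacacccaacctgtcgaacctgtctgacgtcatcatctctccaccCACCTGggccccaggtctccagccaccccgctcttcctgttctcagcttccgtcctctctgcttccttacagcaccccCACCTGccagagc
CLDN7, chr17:7262429-7262728, - strand: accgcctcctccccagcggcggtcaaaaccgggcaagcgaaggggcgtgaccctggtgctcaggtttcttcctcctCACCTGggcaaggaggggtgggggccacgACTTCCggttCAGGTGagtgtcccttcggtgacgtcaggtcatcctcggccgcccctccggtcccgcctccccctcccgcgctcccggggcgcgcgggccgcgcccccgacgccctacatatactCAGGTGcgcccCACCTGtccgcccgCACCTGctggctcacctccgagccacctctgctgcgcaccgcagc
ELF3 held 1 E-box, neither window of EHF held any of the 3 motifs, and the windows shown for ZEB1, RAB25 and CLDN7 held 3, 2 and 5 E-boxes. The CLDN7 window also held 1 ETS motif. Among all 35116 windows, 20.6% held CACCTG, 1.73% held AACCNGTT and 22.8% held GGAAGT. The windows of ZEB1, RAB25 and CLDN7 were picked by their E-boxes, and RAB25 and CLDN7 also because they were lower. Their counts therefore cannot be read against these shares or against the differences. Among epithelial genes not shown, PATJ and DSP were higher and held 3 and 2 E-boxes, and CLDN4 was lower and held none. Of all 11 windows of the 4 matched genes, 3 held CACCTG, in ELF3 and ZEB1. The ZEB2 window, not shown, held none of the 3 motifs. These matches describe the letters in the windows and do not show binding.

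EHF encodes an ETS factor of differentiated epithelia and had the largest difference among the 9 genes. It was at 2.73 in PC3CR and 7.90 in PC3, which is 35.8-fold lower, and 27 of the 19775 genes had a lower difference. The PC3 value lay above the median of its array, whereas the PC3CR value lay below the lower quartile. All 6 EHF probe sets were lower in PC3CR, by between -0.47 and -5.16. The second brightest was at 4.07 in PC3CR and 6.34 in PC3, and the remaining 4 lay below the lower quartile on both arrays, so that the mean over the 6 probe sets differed by -1.77. The size of the EHF difference therefore rests on its brighter probe sets, and its direction was the same in all of them.

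ELF3 is a second ETS factor of epithelia, of the same subfamily as EHF. It was at 5.48 in PC3CR and 7.70 in PC3, a difference of -2.22 or 4.66-fold. Its other probe sets were at 4.08 and 2.99 in PC3CR and at 5.03 and 3.44 in PC3. All 3 were lower in PC3CR, but only the brightest passed 2-fold, and the others differed by -0.95 and -0.45. The brightest carries the suffix of probe sets that bind several transcripts, and without such probe sets ELF3 was within 2-fold.

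GRHL2 encodes a Grainyhead factor that activates junction genes and is known as a brake on EMT. It had 1 probe set, at 3.72 in PC3CR and 5.61 in PC3, a difference of -1.89 or 3.71-fold. The PC3CR value lay below the lower quartile, and the PC3 value lay between the lower quartile and the median. OVOL1, a zinc finger repressor that favours the epithelial state, was at 4.73 in PC3CR and 6.45 in PC3, a difference of -1.72. Its second probe set was at 4.85 in PC3CR and 5.54 in PC3, which is lower by less than 2-fold (-0.68).

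ESRP1 encodes the splicing factor that includes the epithelial exons of transcripts such as FGFR2 and CD44. Its brightest probe set was at 6.35 in PC3CR and 8.86 in PC3, a difference of -2.51 or 5.69-fold. The second was at 6.06 in PC3CR and 8.12 in PC3, a difference of -2.06. Both values of ESRP1 stayed above the lower quartile on both arrays, and of the 5 epithelial factors ESRP1 was the only one whose chosen probe set was at or above the median of the PC3CR array. Over the 5 epithelial factors, all 14 probe sets were lower in PC3CR, and 8 of them passed 2-fold. No share over all probe sets was computed, so these counts have no background. Probe sets of the same gene are not independent, and some of EHF and ELF3 lay below the lower quartile on both arrays.

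**Figure D1:**
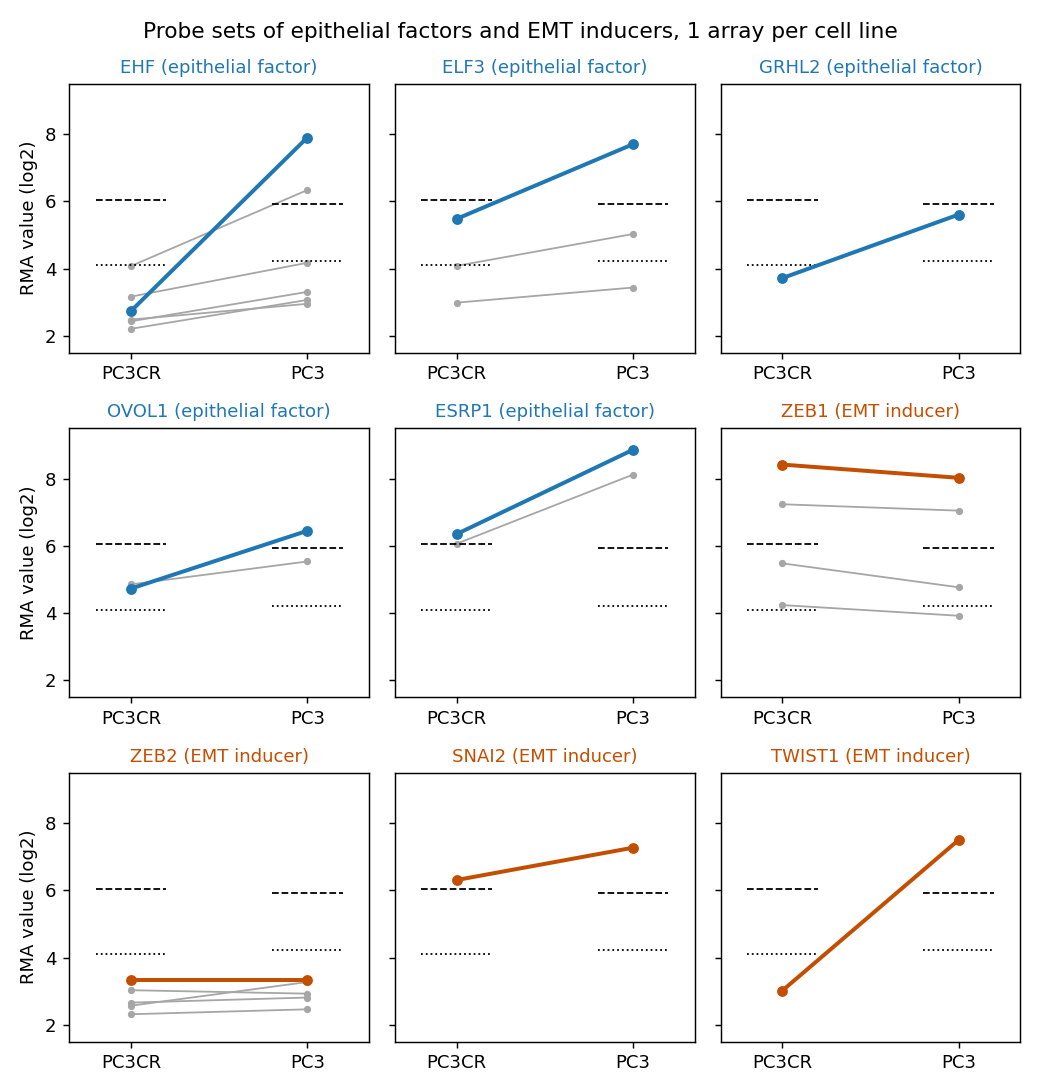
RMA values (log2, vertical axis) of every probe set of the 9 measured genes on the PC3CR array and the PC3 array, with 1 array per cell line. Coloured lines are the probe set with the highest mean (blue for epithelial factors, orange for EMT inducers), grey lines are the other probe sets, and dashed and dotted bars mark the median and the lower quartile over genes of each array. Every line of the 5 epithelial factors is lower at PC3CR, and the TWIST1 line is at 3.02 in PC3CR and 7.50 in PC3.

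TWIST1, a basic helix-loop-helix inducer of EMT, was the EMT inducer furthest from 0. Its only probe set was at 3.02 in PC3CR and 7.50 in PC3, a difference of -4.48 or 22.4-fold, and 59 genes had a lower difference. As with EHF, the PC3CR value lay below the lower quartile and the PC3 value above the median. SNAI2, which encodes the zinc finger repressor Slug, had 1 probe set, at 6.31 in PC3CR and 7.27 in PC3. Its difference of -0.96 is just short of 2-fold, and became -1.09 after loess centring and -1.13 after quantile normalization.

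ZEB1 encodes the zinc finger repressor of epithelial genes such as CDH1. It was at 8.42 in PC3CR and 8.02 in PC3, above the median on both arrays, and differed by 0.39 or 1.31-fold. All 4 probe sets of ZEB1 were higher in PC3CR, by between 0.19 and 0.71, and none passed 2-fold. ZEB1 was the only one of the 9 genes whose chosen probe set was higher in PC3CR. ZEB2, its close relative, was at 3.33 on both arrays, and the deposited values of that probe set were identical. Of its 5 probe sets, 1 was higher and 3 were lower in PC3CR, the widest difference being -0.70, and all lay below the lower quartile on both arrays. The array thus gave no ZEB2 signal above the lower quartile in PC3CR or in PC3.

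**Figure D2:**
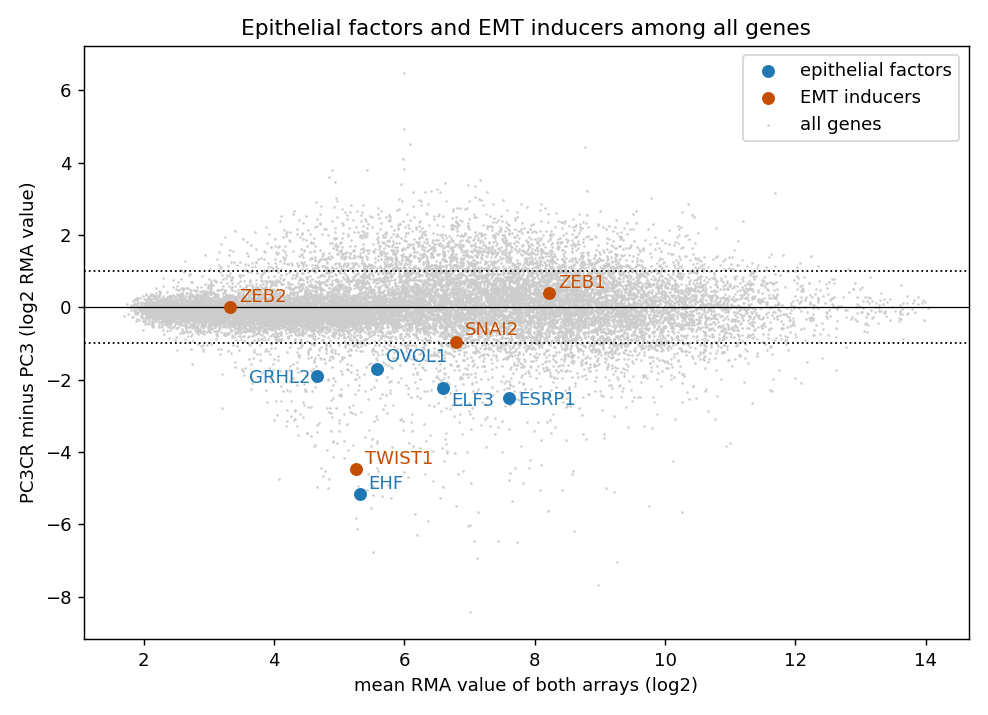
Difference between PC3CR and PC3 (log2 RMA value, vertical axis) against the mean of both arrays (log2, horizontal axis), 1 point per gene for 19775 genes. Blue points are epithelial factors, orange points are EMT inducers, grey points are all genes, and dotted lines mark 2-fold. The 5 epithelial factors and TWIST1 lie below the lower dotted line, and SNAI2, ZEB2 and ZEB1 lie between the lines.

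The nearest relatives of these factors were read in the same way. Of 6 relatives of the epithelial factors (GRHL1, GRHL3, OVOL2, OVOL3, ELF5 and SPDEF) none passed 2-fold, and the median was -0.19. With so few genes, 0 of 6 cannot be set apart from the 6.72% called lower over all genes, and 4 of the 6 were below the median on both arrays, GRHL3 and ELF5 below the lower quartile, where a lower value could hardly be seen. SPDEF, an ETS factor of secretory epithelia, differed by -0.72, with probe sets between -1.60 and -0.31, and OVOL2, which shares the repressor role of OVOL1, by -0.36. GRHL1, which belongs to the family of GRHL2, was at 7.28 in PC3CR and 7.35 in PC3. Among 8 measured relatives of the EMT inducers, 1 was called higher and none lower, close to the shares over all genes, and the median was -0.12. It was TWIST2, the paralog of TWIST1, at 7.68 in PC3CR and 6.06 in PC3, a difference of 1.62. The second TWIST2 probe set differed by 0.19, and as the mean of both TWIST2 differed by 0.91. SNAI1, the relative of SNAI2, was at 5.33 in PC3CR and 5.96 in PC3, a difference of -0.63.

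Of 6 other transcription factors of epithelial lineages, 2 were called lower, none higher and 4 neither, and the median was -0.46. The shares over all genes were 6.72% called lower and 9.84% called higher. TFAP2A, an activator of surface epithelial genes, was at 8.28 in PC3CR and 9.94 in PC3, a difference of -1.66, and KLF5, a factor of proliferating epithelia, differed by -1.02. The 3 TFAP2A probe sets spanned -1.66 to 0.25, and their mean differed by -0.98. After median centring KLF5 was within 2-fold, so that the count was 1. The second KLF5 probe set differed by -1.88, and the mean of both by -1.45. KLF4 and FOXA1, a factor of the prostate luminal lineage, differed by -0.47 and -0.25, and GATA2, another factor of prostate epithelium, by 0.75.

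Genes that the epithelial factors activate or the EMT inducers repress went both ways. Of 24 measured, 8 were called lower, 5 were called higher and 11 neither, and the median was -0.67. Over all genes, 6.72% were called lower and 9.84% higher. MAL2, a protein of apical transport, was at 5.37 in PC3CR and 11.02 in PC3, a difference of -5.65. CLDN4, a claudin of tight junctions, was at 4.11 in PC3CR and 9.08 in PC3, and differed by -4.97. RAB25, a small GTPase of epithelial recycling, was at 3.51 in PC3CR and 7.72 in PC3, and the adhesion molecule EPCAM was at 8.57 in PC3CR and 11.07 in PC3. The second probe set of CLDN4 differed by -0.19, whereas MAL2, RAB25 and EPCAM had 1 each. CLDN7, whose start region is shown above, differed by -2.07, and the protease genes PRSS8 and ST14 by -2.09 and -2.08.

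CDH1, which encodes E-cadherin and is the textbook target of ZEB1 and SNAI2, was at 8.08 in PC3CR and 8.75 in PC3. Its difference of -0.67 is less than 2-fold, and its second probe set differed by -0.49. The 5 genes called higher were PATJ, CGN, CDS1, DSP and TJP3, at between 1.07 and 1.37. DSP encodes desmoplakin of desmosomes, and PATJ, CGN and TJP3 encode proteins on the inner side of tight junctions. As the mean of probe sets 2 genes of this list were called higher, and PATJ had probe sets between -2.60 and 1.37. CACCTG was present in a start window of 11 of the 15 genes of this list found in RefSeq, or in 12 of their 19 windows. The share over all windows was 20.6%. The list includes genes known to be repressed by factors that bind this motif, so the count is no test of enrichment. The motif was present both in genes that were lower, such as RAB25, and in genes that were higher, such as DSP with 2. AACCNGTT was present in 1 of the 15 genes, CGN.

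Mesenchymal genes did not move together either. Of 18 measured, 4 were called higher and 6 lower, against 9.84% higher and 6.72% lower over all genes. Their median was -0.13. CDH2, which encodes N-cadherin, was at 3.28 in PC3CR and 8.21 in PC3, a difference of -4.93. FSTL1, a secreted glycoprotein, FN1, fibronectin, and SPARC, a matrix protein, differed by -3.50, -3.30 and -2.26. Without probe sets of the class that binds several transcripts, FN1 differed by 0.046 and SPARC by -0.52, and with its probe sets averaged FSTL1 differed by -1.43. In PC3CR cells VIM, the intermediate filament vimentin, was at 12.68 against 11.47 in PC3, a difference of 1.21. LOX and LOXL2, which cross-link collagen, differed by 2.19 and 1.18, and TGFBI, an adhesion protein induced by TGF-beta, by 1.80. Thus EPCAM and CDH2, markers of the opposite states, were both called lower in PC3CR, while VIM was called higher and CDH1 neither.

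**Figure D3:**
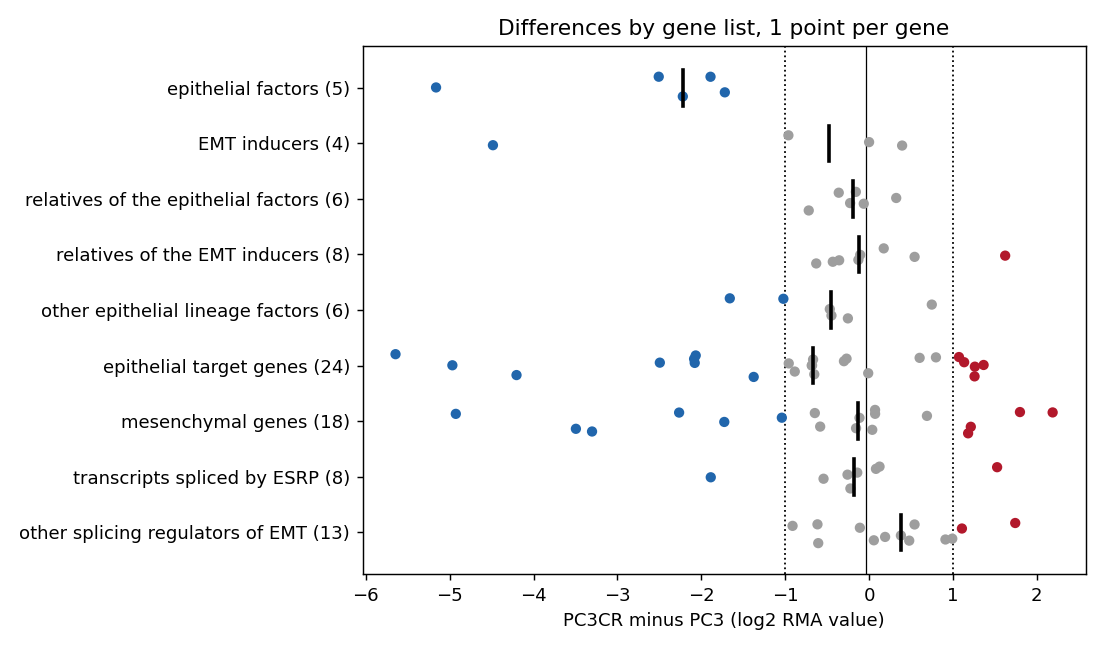
Each point is 1 gene of 9 lists (measured genes in brackets), placed by PC3CR minus PC3 in log2 RMA units along the horizontal axis. Red marks genes called higher in PC3CR, blue those called lower and grey the rest, short black bars show the median of a list, the thin line is the median over all genes (-0.041) and dotted lines mark 2-fold. All 5 epithelial factors are blue, and the epithelial target genes and mesenchymal genes have points on both sides.

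The RNAs that ESRP1 splices were read for their overall level only, because these values do not tell splice forms apart. Of 8 measured, 1 was called higher, 1 lower and 6 neither, and the median was -0.18. Both counts are close to the shares over all genes. With probe sets averaged the median was 0.080 and none was called lower, and none was called lower without the class that binds several transcripts either. CD44, the hyaluronan receptor, was at 8.56 in PC3CR and 10.45 in PC3, a difference of -1.89. Over its 13 probe sets the differences spanned -2.26 to 0.14, and the brightest one outside the class that binds several transcripts differed by -0.07. SLK, a kinase, was at 9.76 in PC3CR and 8.23 in PC3, and FGFR2, whose exon choice is the best known target of ESRP1, was at 5.86 in PC3CR and 6.11 in PC3. The 11 probe sets of FGFR2 spanned differences of -0.62 to 1.29.

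Of 13 splicing regulators other than ESRP1 that are known to act in EMT, 2 were called higher, none lower and 11 neither, and the median was 0.38. The share called higher is near the 9.84% over all genes. With probe sets averaged, the median was 0.079 and none was called higher, and without the class that binds several transcripts the median was 0, MBNL3 was called higher and HNRNPM lower (-1.71). KHDRBS3 was called lower after loess centring (-1.05) and after quantile normalization (-1.08). RBFOX2, which promotes mesenchymal exon use, was at 9.99 in PC3CR and 8.89 in PC3, a difference of 1.11, and its 4 probe sets differed by between 0.45 and 1.11. MBNL3 differed by 1.74, with values below the lower quartile on both arrays. RBM47, an epithelial RNA-binding protein, and QKI, which is linked to the mesenchymal state, differed by 0.91 and -0.62, both within 2-fold.

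MicroRNAs of the miR-200 family and miR-205 are known to bind ZEB1 and ZEB2 RNA and are part of the same circuit. The array does not measure mature microRNAs, but it carries the host genes MIR205HG and MIR200CHG. MIR205HG was at 2.52 in PC3CR and 4.77 in PC3, a difference of -2.25 on 1 probe set, and MIR200CHG was at 4.41 in PC3CR and 4.81 in PC3. Both PC3 values were below the median of the array. The mature sequences that these loci encode, from RefSeq on GRCh38.p14, are given 5′ to 3′ with the seed (bases 2 to 8), which pairs with the target, in capitals.
hsa-miR-205-5p, chr1:209432166-209432187, + strand: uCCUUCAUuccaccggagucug
hsa-miR-200c-3p, chr12:6963742-6963764, + strand: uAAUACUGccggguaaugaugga
hsa-miR-141-3p, chr12:6964155-6964176, + strand: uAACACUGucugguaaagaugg
The seeds of miR-205-5p, miR-200c-3p and miR-141-3p all differ from each other, although miR-200c-3p and miR-141-3p both come from the MIR200CHG locus.

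The genes next to the 9 factors were read to see whether a factor differed with its surroundings. Neighbours were the 10 measured genes on each side in RefSeq order, chosen after the values of the factors had been seen. Over all genes, 6.72% were called lower and 9.84% higher. ELF3, on chromosome 1, was lower than all 20 of its neighbours, of which 4 were called higher and none lower, and their median was 0.43. EHF, on chromosome 11, had a neighbour median of -0.18, with 4 neighbours called lower and 2 higher. The 4 were APIP, CD44, FJX1 and COMMD9, at between -1.16 and -1.97, and none was as low as EHF.

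GRHL2 and ESRP1 both lie on chromosome 8, with neighbour medians of -0.17 and -0.18. Each had 4 of 20 neighbours called lower, against 6.72% of all genes. Called higher were 1 neighbour of GRHL2 and 3 of ESRP1, against 9.84% of all genes. SNX31, at -3.47, and ATP6V1C1, at -1.99, had lower differences than GRHL2. OVOL1, on chromosome 11, had 5 neighbours called lower, among them FOSL1, an AP-1 subunit, at -3.62, and 2 called higher. TWIST1, on chromosome 7, had a neighbour median of -0.09, with 4 neighbours called lower (AGR2, HDAC9, ITGB8 at -2.79 and GIRGL at -1.05) and 1 higher. The gene beside it, HDAC9, which encodes a histone deacetylase, was at 4.16 in PC3CR and 8.44 in PC3, a difference of -4.28 that is close in size to that of TWIST1. AGR2, a secretory pathway protein, lies 9 measured genes away and differed by -5.91, while the genes between AGR2 and HDAC9 lay within 2-fold. Of those genes, AHR and SNX13 were above the median on both arrays. AGR3, LINC02888, LOC105375172 and PRPS1L1 were below the lower quartile on both, where a lower value could hardly be seen. Next to ZEB1, its antisense partner ZEB1-AS1 was at 6.00 in PC3CR and 4.99 in PC3, a difference of 1.01.

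**Figure D4:**
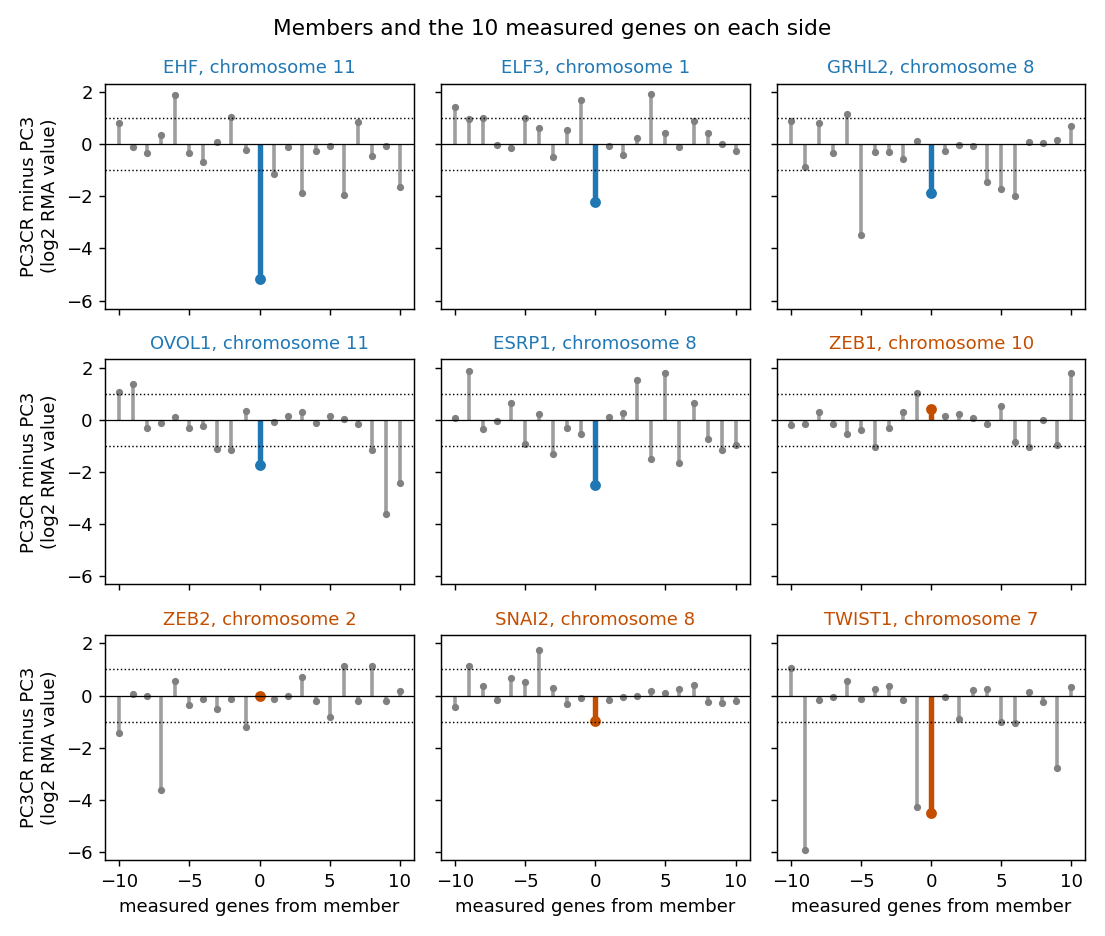
Difference between PC3CR and PC3 (log2 RMA value, vertical axis) of each of the 9 factors (coloured) and of the 10 measured genes on each side of it (grey), by order along the chromosome (horizontal axis), with dotted lines at 2-fold. Most neighbours of the epithelial factors lie between the dotted lines, and TWIST1 has 1 adjacent gene, HDAC9, with a difference of -4.28.

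Markers of the cells themselves and of other cell types were read beside these results. KRT8 and KRT18, the keratins of simple epithelia, were at 9.79 and 12.36 in PC3CR and at 9.72 and 11.69 in PC3, above the median on both arrays. KRT19, another epithelial keratin, was at 8.03 in PC3CR and 11.32 in PC3, and with EPCAM it made 2 of 5 epithelial markers that were called lower. Over all genes, 6.72% were called lower. Of the luminal prostate markers, KLK3, which PC3 cells are known to lack, was at 8.08 in PC3CR and 8.04 in PC3, and TMPRSS2 at 5.78 in PC3CR and 6.23 in PC3. Of 7 fibroblast markers 1 was called lower, COL1A1 at -2.12, or -0.79 with its probe sets averaged, and their values ranged between 3.14 and 6.56 in PC3CR and between 2.24 and 8.69 in PC3. None of 4 leukocyte markers (2.95 to 5.58 in PC3CR, 3.03 to 6.00 in PC3) or 3 endothelial markers (3.28 to 5.81 in PC3CR, 3.24 to 6.41 in PC3) passed 2-fold. Below the lower quartile on both arrays were 1 of the 4 leukocyte markers (PTPRC) and 2 of the 3 endothelial markers (VWF and CDH5). The leukocyte marker CD79A and the endothelial marker PECAM1, at 6.00 and 6.41 in PC3, were above the median there and below it in PC3CR. The part of other cells in the differences was not tested.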

How the data were processed

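Gene expression was measured in PC3CR and PC3 cells with 1 array each. For each probe set the authors deposited 1 log2 value made with RMA. The tools in their notes are Transcriptome Analysis Console 3.1, Affymetrix Expression Console 1.4 and RMA. The probe sets deposited belong to the U133 Plus 2.0 array, although the array in the methods is the Human Gene 1.0 ST. Because RMA equalises the distributions of arrays, a change in the amount of RNA per cell would not show. Of 54613 probe sets, 41091 had 1 gene symbol in the platform annotation and were used. Symbols were updated through Entrez IDs to RefSeq on GRCh38.p14. Some genes of the lists were not analysed here.

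No p-value was computed, because 1 array per cell line gives no spread, so precision is limited by the number of arrays. The factors and gene lists were chosen with earlier results of these data known. All factors are named, and in each other list up to 4 members with the widest differences past 2-fold, or 2 where no member passed; further genes were named after their values were seen. The alternatives were averaging of all probe sets of a gene, probe sets without the s or x suffix, quantile normalization, loess centring (span 0.4), median centring, thresholds of 1.5-fold and 3-fold, and a signal floor that asks for the brighter value of a gene to reach its array's median. The procedure was tested on simulated data. Versions were Python 3.11.15, pandas 2.3.3, numpy 2.4.6, matplotlib 3.10.9 and statsmodels 0.14.6.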

Additional observations from a re-analysis of the deposited data

How the results depend on the processing

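With 1 array per cell line no setting gives an error, so shifts of up to 0.1 (log2) in a value and of up to 1.5 times in a count were read as no change. The count of factors called lower, 6 of 9, lay between 5 and 7 over the alternatives other than the floor on signal, and none was called higher in any of them. The median difference of the epithelial factors, -2.22, was -1.77 as the mean of probe sets, -1.89 without probe sets of the s or x suffix and -2.34 after loess centring. The floor on signal is no check of these results, because EHF, ELF3, OVOL1 and TWIST1 passed it only through their PC3 value; it gave medians of -2.36 over 4 epithelial factors and -0.96 over 3 EMT inducers. As the mean of probe sets ELF3 differed by -1.21 and OVOL1 by -1.20, and without the s or x suffix ELF3 differed by -0.95. Without that suffix FN1 differed by 0.046 and CTNNA1 by -0.093, each in the direction opposite to the brightest probe set. No paired analysis was possible because each cell line has 1 array. Values near the floor, as for EHF and TWIST1 in PC3CR, limit the size of a difference.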
